A study of Homo sapiens with 32 samples.

Results

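Acute loss of STAG2 was followed in A673 cells that had been transfected with siRNA against STAG2 (siSTAG2, 3 libraries) and compared with control cells of the same line (siC, 3 libraries). These 6 libraries make up experiment 4 and were taken by their column names from the 32 samples of the series, which otherwise holds clones and cell lines that lack STAG2, STAG1 or a Polycomb subunit, with their controls. A673 is an established Ewing sarcoma line whose tumour-driving protein is the fusion EWS::FLI1, and the siC and siSTAG2 cells share that background. The labels give the siC cells as WT and name no treatment, whereas the study describes them as mock transfected. The siRNA was a commercial pool of several STAG2 siRNAs. Neither a non-targeting siRNA nor the time of harvest is given for these libraries, so that the effect of STAG2 loss and that of taking up siRNA cannot be told apart. The labels number the libraries of each group 1 to 3 without saying whether they come from separate cultures, so that p-values measure only the spread between these libraries.

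Cohesin is a ring of SMC1A, SMC3 and RAD21 that holds sister chromatids together and forms chromatin loops by extrusion. A STAG subunit, either STAG1 or STAG2, completes the ring, and loss of STAG2 is a recurrent lesion of Ewing sarcoma. The loader NIPBL-MAU2, the releasing factor WAPL and the PDS5 proteins control how long cohesin stays on DNA, and CTCF marks where loops are anchored. EWS::FLI1 carries the DNA-binding domain of the ETS factor FLI1, which reads the motif GGAA. It activates distant genes from stretches of repeated GGAA and represses others, among them many mesenchymal genes.

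The study describes RNA copied with an oligo-dT primer and libraries that do not keep the strand. The column names of these 6 libraries hold FWD, whose meaning is not given. Whether these libraries keep the strand is therefore not certain. The authors deposited one normalized value per gene and library, a read count divided by a factor of that library, and these values are given throughout. The reads behind them could be recovered and summed to 6852340 to 8184632 per library. A value of 1 therefore stands for close to 1 read, and the precision of low genes is set by counting. The 6 libraries fell into their 2 groups along the first principal component, which held 53.3% of the variance, and the second held 12.5%. Reads on mitochondrial genes made up 4.01% of siC library 1, 6.03% to 7.15% of the other siC libraries and 6.97% to 7.12% of the siSTAG2 libraries, and results that rest on siC library 1 are named below. In A673 the Ewing sarcoma markers NKX2-2, CD99, STEAP1, PRKCB, CCND1 and NR0B1 were present in all 6 libraries. Leukocyte markers were at or near 0: 7 of 12, PTPRC, CD3E and MS4A1 among them, had no read in any library, and the summed values were 6.25 to 14.8 in siC and 11.6 to 20.4 in siSTAG2. Of the 12 epithelial markers 4 had no read, KRT5, KRT14, CLDN4 and GRHL2, and nearly all of the summed value (3527 to 3932 in siC and 2915 to 3212 in siSTAG2) came from KRT18. The endothelial sum (251 to 274 in siC and 344 to 386 in siSTAG2) came almost entirely from EMCN, with VWF and TEK at 0. Levels are not compared between genes, because the siC libraries held fewer reads on long transcripts, relative to short ones, than the control libraries of experiments 1 and 2.

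STAG2 (ENSG00000101972, chromosome X, 123960212 to 124422664, + strand, GENCODE 44 on GRCh38) had values of 1068, 992 and 1089.7 in siC and 144, 179.9 and 153 in siSTAG2. The groups were far apart, and 0.15 of the control level was left, a log2 fold change of −2.72 (SE 0.085). The paralogue STAG1, which can take the place of STAG2 in the ring, had values of 297, 305 and 318 in siC and 388, 328 and 423 in siSTAG2. Its increase passed the test, with a log2 fold change of 0.30 (SE 0.091, adjusted p = 0.019) by limma. The ring subunits were lower by less than the test could call. RAD21 was at 2564, 2684 and 2659 in siC and 2379, 2405 and 2399 in siSTAG2, a log2 fold change of −0.14 (SE 0.055, adjusted p = 0.074), and its groups did not overlap. SMC1A had a log2 fold change of −0.12 (adjusted p = 0.14) and SMC3 of −0.068 (adjusted p = 0.44). The loader subunits NIPBL (−0.0076) and MAU2 (0.11) and the releasing factor WAPL (0.044) were not called, with 95% intervals on the log2 scale of the knockdown effect that all lay within 0.3 of 0. Both PDS5 genes, whose products bind the ring and regulate its release and its extrusion, rose slightly. PDS5A was at 1182, 1184 and 1116 in siC and 1269, 1434 and 1407 in siSTAG2, and PDS5B at 703, 727 and 719 in siC and 864, 810.3 and 808 in siSTAG2. Their log2 fold changes were 0.24 (adjusted p = 0.0079) and 0.21 (adjusted p = 0.024), with siSTAG2 above siC in every library. These 3 small increases depended on single libraries and on the fit. Without a trend of the spread with the level none was called (adjusted p = 0.13 for STAG1, 0.108 for PDS5A and 0.104 for PDS5B), and PDS5B was not called by DESeq2 (adjusted p = 0.0558) or after scaling by library totals (adjusted p = 0.0615). STAG1 was no longer called without siC replicate 1, siSTAG2 replicate 1 or siSTAG2 replicate 3 (log2 fold changes from 0.22 to 0.40 over the 6 fits that left out 1 library, adjusted p up to 0.15). PDS5A lost its call without siSTAG2 replicate 2 (p up to 0.068) and PDS5B without any of siC replicates 1 and 3 and siSTAG2 replicates 1 and 2 (p up to 0.095).

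**Figure D1:**
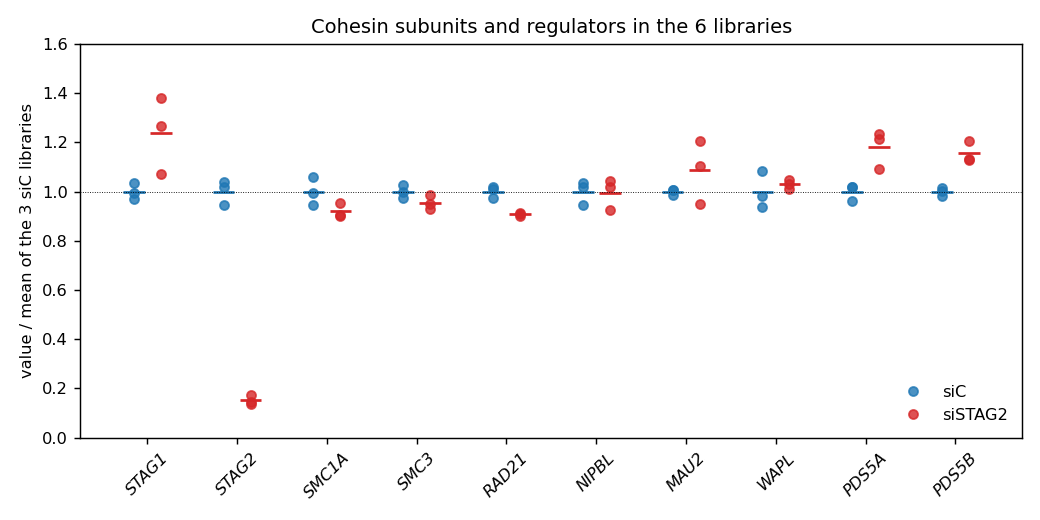
Values of the cohesin subunits and regulators that were tested, each divided by the mean of the 3 siC libraries. Points are libraries (siC blue, siSTAG2 red) and short bars are group means. STAG2 falls to 0.15 of the siC mean, STAG1 lies above it in all 3 siSTAG2 libraries, and the siSTAG2 means of the remaining genes stay within 0.3 of it.

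The test covered genes whose mean over the 6 libraries reached 10, and was made by limma on log2(value + 1), and a gene is called when its Benjamini-Hochberg adjusted p is under 0.05. Of 12060 genes tested, 2476 were called (20.5%), 1151 higher (9.54%) and 1325 lower (11.0%) in siSTAG2, and the 3 libraries of one group lay apart from the 3 of the other for 35.0% of all genes tested. The changes were mostly small: 1497 of the called genes changed by less than 0.5 on the log2 scale, and the median size was 0.41. Among the 305 called genes that changed more than 2-fold, 235 were lower and 70 higher. High genes made up more of the increases than of the decreases. Of 3015 genes with mean values of at least 475.65, 17.5% were called higher and 12.8% lower, and of 3015 genes with mean values of 10 to 55.5, 3.98% and 8.39%. When the spread was shrunk to 1 value for all genes in place of a trend with the level, 1200 genes were called, 443 higher and 757 lower, and DESeq2 on the recovered reads called 745 higher. Without siSTAG2 replicate 3 the number of genes called higher dropped to 740.

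**Figure D2:**
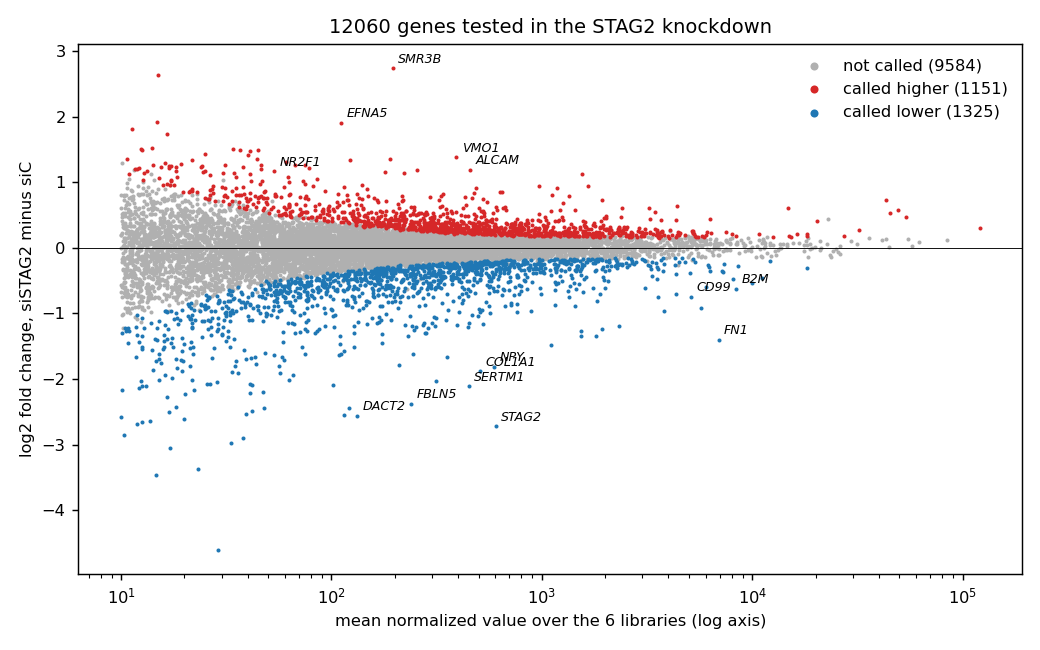
Log2 fold change (siSTAG2 minus siC) of the 12060 tested genes against their mean normalized value over the 6 libraries, on a log axis. Genes called higher are red, genes called lower blue and the rest grey. Large decreases outnumber large increases, and STAG2 stands apart among genes of its level.

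At each end 12 protein-coding genes are described, those with the lowest and the highest log2 fold changes among called genes whose mean reached 50 and whose groups did not overlap. The lowest were DACT2, CALCB, CHST1, FBLN5, SERTM1, IGSF10, ADGRG2, LGALS3, BMF, DAPK2, COL1A1 and NPY. DACT2, an intracellular antagonist of WNT signalling, was at 203, 240.1 and 236 in siC and 28.8, 48.2 and 37.7 in siSTAG2. CALCB (ENSG00000175868, chromosome 11, 14904997 to 15082342, + strand), which encodes the neuropeptide beta-CGRP, was at 184, 191 and 214 in siC and 21.1, 38.9 and 41.5 in siSTAG2, a log2 fold change of −2.56 (SE 0.19). CHST1 (ENSG00000175264, chromosome 11, 45647689 to 45665622, − strand), a sulfotransferase that modifies keratan sulfate, was at 223, 216 and 174 in siC and 35.5, 34.3 and 40.6 in siSTAG2, a log2 fold change of −2.44 (SE 0.15). Each of these dropped about as far as STAG2 itself. FBLN5, a matrix protein needed to build elastic fibres, was at 432, 373 and 399 in siC and 75.4, 61.2 and 95.6 in siSTAG2, and its log2 fold change was −2.38 (SE 0.13, adjusted p = 2.0e-13). SERTM1, a small transmembrane protein, was at 725, 705 and 760.5 in siC and 174, 166 and 165 in siSTAG2, a log2 fold change of −2.11 (SE 0.08). Its error was smaller than those of CALCB and CHST1, which had lower values, and the fit partly sets the error by the level of a gene. ADGRG2, an adhesion receptor coupled to G proteins, was at 485, 498 and 537 in siC and 112, 132 and 126 in siSTAG2. The ratio of siSTAG2 to siC means was 0.24 for ADGRG2 and 0.23 for SERTM1. BMF and DAPK2, which both promote cell death, had log2 fold changes of −1.95 (SE 0.25) and −1.90 (SE 0.20). LGALS3, the sugar-binding protein galectin-3, had −2.02 (SE 0.23), and IGSF10, a secreted immunoglobulin-domain protein, −2.09 (SE 0.15). NPY, the precursor of neuropeptide Y, had values of 905, 913 and 962 in siC and 249, 273 and 268 in siSTAG2, with no overlap and a log2 fold change of −1.81 (SE 0.074). All 12 kept their call when any 1 library was left out.

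At the other end, log2 fold changes ran from 1.16 to 2.74. SMR3B, a salivary proline-rich protein gene of the opiorphin cluster on chromosome 4, was at 37.2, 54.1 and 61.5 in siC and 301, 369.9 and 349 in siSTAG2 and stood above the other 11 with a ratio of means of 6.67. EFNA5, an ephrin ligand that repels growing axons, was at 42.9, 53.1 and 42.7 in siC and 186, 178 and 161 in siSTAG2, a log2 fold change of 1.90 (SE 0.14). After these came VMO1, a secreted protein named for its egg-membrane relative, at 217, 244 and 191 in siC and 519, 643 and 540.0 in siSTAG2, with a log2 fold change of 1.38 (SE 0.096). UTS2, the precursor of the vasoactive peptide urotensin-2, was at 128, 101 and 92.7 in siC and 279.6, 244 and 296 in siSTAG2, with a log2 fold change of 1.35 (SE 0.12). In UTS2 every siSTAG2 library lay at least 100 above every siC library. PCDH9, a protocadherin of neural cells, was at 65.8, 69.9 and 70.8 in siC and 186, 185 and 155 in siSTAG2 (log2 fold change 1.33). ALCAM, the adhesion molecule CD166, was at 267, 279 and 291 in siC and 655, 638 and 616 in siSTAG2, a log2 fold change of 1.19 (SE 0.076, adjusted p = 6.7e-12). CHGA, the core protein of neuroendocrine granules, was at 132, 179 and 159 in siC and 318, 375 and 371 in siSTAG2, a log2 fold change of 1.18 (SE 0.11, adjusted p = 5.6e-09). The synaptic adhesion gene LRRC4 (1.16), the transcription factor gene CREB5 (1.27), LYPD1, which modulates nicotinic receptors (1.21), and TMEM151B (1.27) also rose. NR2F1 (COUP-TF1), a nuclear receptor of neural crest and forebrain, was low in siC and had values of 42.9, 24.6 and 31.3 in siC and 76.6, 71.4 and 72.5 in siSTAG2, a log2 fold change of 1.17 (SE 0.20, adjusted p = 1.2e-04). These calls, too, held without any 1 library. UTS2 shares exon sequence with PER3, TMEM151B with AARS2 and TCTE1, LYPD1 with GPR39 and IGSF10 with MED12L, all on the opposite strand. If the libraries do not keep the strand, reads of such pairs cannot be told apart.

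**Figure D3:**
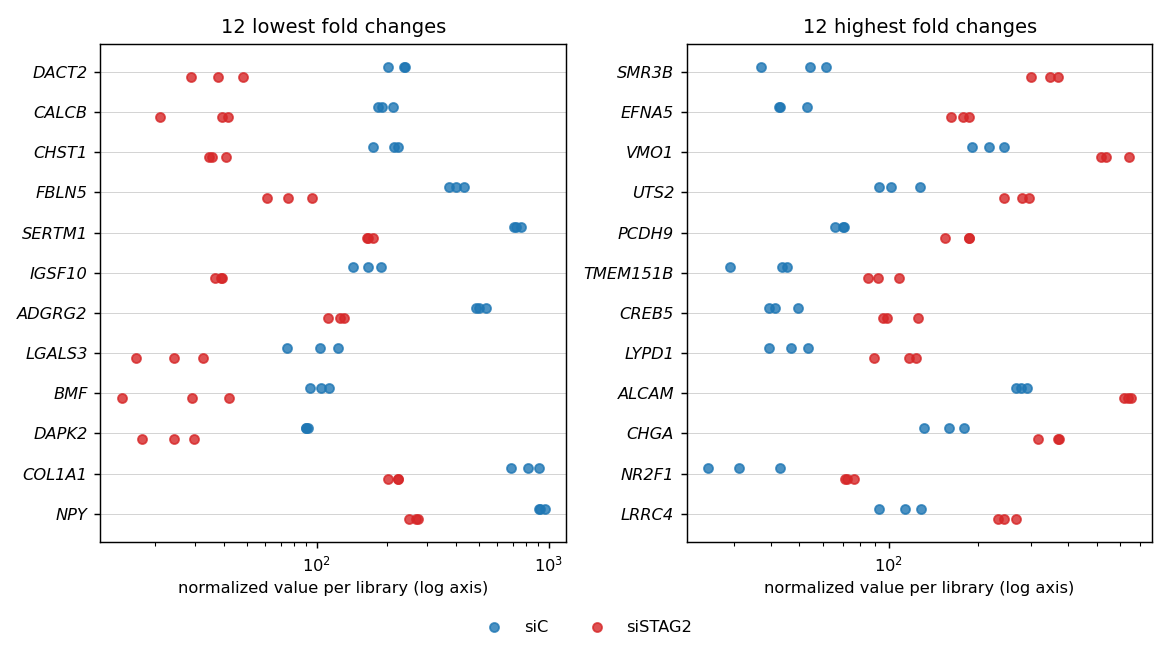
Normalized values in each of the 6 libraries for the 12 protein-coding genes with the lowest (left) and the 12 with the highest log2 fold change (right), on log axes. Points are libraries, siC in blue and siSTAG2 in red. In every gene shown the 3 siSTAG2 libraries lie on one side of the 3 siC libraries.

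Because EWS::FLI1 reads GGAA, the promoters of the 3 lowest and 3 highest of these genes that the RefSeq promoter table holds are shown, as the 250 bases before the start site on the strand of the gene (GRCh38.p14), with every GGAA, or TTCC for the other strand, in capitals. CALCB, CHST1 and VMO1 were not matched. For FBLN5 and UTS2, which have several starts in the table, the window nearest to the start of the gene in GENCODE is given.
DACT2, lower in siSTAG2 (chr6:168319778-168320027, − strand): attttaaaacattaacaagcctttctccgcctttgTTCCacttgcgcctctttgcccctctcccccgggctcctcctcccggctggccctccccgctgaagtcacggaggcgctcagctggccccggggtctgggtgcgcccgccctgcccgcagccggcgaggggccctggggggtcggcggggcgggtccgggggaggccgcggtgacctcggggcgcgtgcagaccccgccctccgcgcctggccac
FBLN5, lower (chr14:91947695-91947944, − strand): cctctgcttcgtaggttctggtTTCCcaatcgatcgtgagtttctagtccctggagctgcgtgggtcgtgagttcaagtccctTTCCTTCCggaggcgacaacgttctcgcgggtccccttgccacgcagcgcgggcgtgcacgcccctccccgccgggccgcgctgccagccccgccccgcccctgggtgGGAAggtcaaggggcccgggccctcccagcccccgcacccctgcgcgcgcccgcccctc
SERTM1, lower (chr13:36673770-36674019, + strand): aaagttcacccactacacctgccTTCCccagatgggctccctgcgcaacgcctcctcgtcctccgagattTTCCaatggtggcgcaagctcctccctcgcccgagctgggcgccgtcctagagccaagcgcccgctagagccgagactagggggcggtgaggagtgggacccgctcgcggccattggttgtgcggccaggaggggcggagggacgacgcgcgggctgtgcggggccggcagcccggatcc
SMR3B, higher (chr4:70382881-70383130, + strand): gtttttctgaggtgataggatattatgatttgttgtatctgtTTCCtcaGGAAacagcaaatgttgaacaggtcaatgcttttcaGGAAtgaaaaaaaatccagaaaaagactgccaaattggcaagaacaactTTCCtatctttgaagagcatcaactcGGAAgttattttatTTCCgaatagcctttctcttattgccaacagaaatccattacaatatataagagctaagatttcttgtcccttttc
EFNA5, higher (chr5:107670938-107671187, − strand): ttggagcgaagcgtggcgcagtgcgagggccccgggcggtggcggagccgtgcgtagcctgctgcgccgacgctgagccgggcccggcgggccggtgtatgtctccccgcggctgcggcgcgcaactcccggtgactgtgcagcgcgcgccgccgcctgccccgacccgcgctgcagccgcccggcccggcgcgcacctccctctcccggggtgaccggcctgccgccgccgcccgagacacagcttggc
UTS2, higher (chr1:7853492-7853741, − strand): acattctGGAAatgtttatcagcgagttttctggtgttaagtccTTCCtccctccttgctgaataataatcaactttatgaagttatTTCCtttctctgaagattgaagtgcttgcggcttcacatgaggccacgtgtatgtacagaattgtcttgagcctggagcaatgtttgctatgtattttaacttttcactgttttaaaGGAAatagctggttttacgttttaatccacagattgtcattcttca
The promoters of DACT2, FBLN5 and SERTM1 held 1, 4 and 2 such motifs, and those of SMR3B, EFNA5 and UTS2 held 6, 0 and 4. A directly repeated motif, GGAAGGAA on either strand, was found in FBLN5 and in none of the other 5. Of the 1611 promoter windows of 1014 genes called lower, 50 held GGAAGGAA (3.1%), of the 1356 windows of 898 genes called higher, 51 (3.76%), and of the 13733 windows of all 9368 tested genes that were matched, 410 (2.99%). The median number of single motifs was 3 in each of these sets. A match describes the letters of the window and is not evidence of binding.

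Among genes that EWS::FLI1 occupies, those with a distal long GGAA repeat were called lower most. The study had taken genes that change when the fusion itself is depleted, and sorted them by whether the fusion binds at the promoter itself or at a distal site that the promoter contacts, made of short or of long GGAA repeats. The siSTAG2 libraries were not used for this, and the class shares were not tested against each other. Among 142 tested genes with a distal long repeat, 64 were called lower (45.1%) and 6 higher, with a median log2 fold change of −0.20, beside 11.0% lower and a median of 0.0066 over all genes tested. With a distal short repeat 151 of 605 were lower (24.96%) and 42 higher, with a median of −0.086. With EWS::FLI1 at the promoter 66 of 494 were lower (13.4%) and 61 higher (12.3%), with a median of 0.005. The lowest of the long-repeat genes were SERTM1 and BMF, given above, and KAAG1 (−1.89). Members that rose most in that class were the forebrain homeobox gene VAX1 at 523, 524 and 505 in siC and 869, 771 and 734 in siSTAG2 (log2 fold change 0.61), the homeobox gene BARHL2 (0.54) and PRR5L, a partner of mTOR complex 2 (0.33). Among short-repeat genes OLFML2A (−2.09), SEMA5B (−2.08) and MYOF (−2.01) were lowest, and at promoters FREM1 (−1.88), IGFN1 (−1.87) and CYP26B1 (−1.80), while EFNA5, VMO1 and UTS2 were highest there. Without the trend the short-repeat class had 93 lower and 13 higher genes and the long-repeat class 3 higher, and at promoters DESeq2 and the fit without the trend each called 37 higher.

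Textbook targets of the fusion were called in both directions, more of them lower. Of the canonical activated targets, that is 41 tested members, 6 were called higher (14.6%) and 22 lower (53.7%), with a median of −0.29. Over all genes tested 9.54% were called higher and 11.0% lower. CCK, the precursor of cholecystokinin, was at 132, 121 and 116 in siC and 49.9, 49.1 and 56.0 in siSTAG2 (log2 fold change −1.24) and EGR2, an immediate early factor, at 42.9, 44.3 and 48.96 in siC and 21.1, 19.5 and 20.3 in siSTAG2 (−1.12). In the other direction FEZF1, a forebrain zinc finger factor, was at 502, 604 and 479 in siC and 778, 845 and 817 in siSTAG2 (0.63). The Ewing dependency factors NR0B1 (179, 151 and 204 in siC and 249.6, 249 and 241 in siSTAG2) and BCL11B (0.46) also rose. Among the 19 markers of the tumour type 12 were called lower (63.2%) and 2 higher (10.5%). CD99, the surface antigen used in diagnosis, was at 6618, 5944 and 6707 in siC and 3723, 3908 and 3819 in siSTAG2, a log2 fold change of −0.75 (SE 0.057, adjusted p = 2.0e-10). Genes that the fusion represses did not rise: of these 26 tested members, 0 were called higher and 13 lower (50%), with a median of −0.39. Neither partner gene of the fusion was called, and both are named here although the naming rule does not select them. FLI1 was at 307, 249 and 247 in siC and 278, 294 and 298 in siSTAG2 (0.12, adjusted p = 0.4) and EWSR1 at 614, 623 and 750.1 in siC and 672, 670.3 and 761 in siSTAG2 (0.086, adjusted p = 0.49). Among the other ETS factors FEV was at 21.9, 20.7 and 20.8 in siC and 71.0, 54.7 and 57.96 in siSTAG2 (1.48) and ETV4 at 94.4, 100.4 and 76.0 in siC and 159.8, 147 and 143 in siSTAG2 (0.74), both higher in every siSTAG2 library, and ELK1 fell (−0.38). In that list of FET and ETS genes 5 of 18 were called higher (27.8%), and 2 to 3 of them without siC replicate 1, siSTAG2 replicate 2 or siSTAG2 replicate 3.

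The study also sorted genes that change in STAG2 KO clones by the CTCF-anchored loops around them. Of genes whose loops were common to cells with and without STAG2, 182 of 701 were called lower (26.0%) and 79 higher after the knockdown. Of genes whose loops are lost without STAG2, 25 of 106 were lower (23.6%) and 10 higher, or 6 higher without siSTAG2 replicate 3. Of genes with gained loops 5 of 58 were lower (3 without siC replicate 3 or siSTAG2 replicate 2) and 4 higher (2 without siSTAG2 replicate 1 or 2), a share of 15.5% that is not above that of all genes. The loss class was led by POU4F2, a neural POU-domain factor, at 82.9, 73.8 and 75.01 in siC and 8.88, 27.8 and 16.4 in siSTAG2 (−2.20), and GPR39 rose in it (1.27), on the strand opposite to LYPD1. In the common class the calcium channel subunit gene CACNG3 fell from 18.1, 22.6 and 15.6 to 1.11, 3.71 and 0.97 (−2.86), and the stress-induced NKG2D ligand gene RAET1E rose from 3.81, 6.89 and 1.04 to 24.4, 33.4 and 20.3 (2.64), each close to the counting limit in one group. These classes were chosen on genes that had changed in the clones, so a share above that of all genes is not evidence about loops. Without the trend the common class had 121 lower and 47 higher genes and the lost class 15 lower, and DESeq2 called 6 higher in the lost class.

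Extracellular matrix and mesenchymal genes were lower as a group. Beside the lists of this paragraph, 9.54% of all genes tested were called higher and 11.0% lower. In the collagen list, with 21 tested members, 1 was called higher and 12 lower (57.1%), with a median of −0.46. Type I collagen fell in both chains, COL1A1 from 904, 816 and 689 to 202, 223 and 224 (log2 fold change −1.88) and COL1A2 from 2735, 2267 and 2794 to 1014, 1048 and 999 (−1.34). Fibronectin, FN1, fell from 11548, 8761 and 9810.3 to 4146, 3949 and 3279, a log2 fold change of −1.40 (SE 0.081, adjusted p = 7.6e-13). The mesenchymal markers had 17 tested members, 2 were called higher (11.8%) and 11 lower (64.7%). The small matrix proteoglycans LUM (46.7, 34.4 and 47.9 against 2.22, 3.71 and 3.86) and DCN (32.4, 38.4 and 33.3 against 6.66, 5.56 and 2.90) fell to a few reads, while THY1 (0.48) and the TGF-beta co-receptor ENG (0.53) rose. Fibroblast markers overlap this list; 7 of 10 were tested, 6 fell, and their summed values were 4905 to 5500.4 in siC and 3071 to 3217 in siSTAG2, with PDGFRA and FAP at or near 0. The part of other cells in these decreases was not tested. Among 15 matrix proteases and inhibitors 8 fell (53.3%), MMP9 most (32.4, 38.4 and 29.2 against 11.1, 5.56 and 3.86, −2.23) and MMP1 from 258, 218 and 217 to 119, 103 and 92.7 (−1.14), and MMP16 alone rose (0.97). The integrins and laminins had 13 tested members, 1 was called higher and 6 lower (46.2%), and the leukocyte integrin subunit ITGB2 was lowest (148, 186 and 159 against 51.0, 66.8 and 41.5, −1.63).

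In the list of neuropeptides and receptors 6 of 8 tested members were called lower (75% beside 11.0% over all genes) and none higher, with a median of −1.06. The list leaves out the peptide precursor genes CALCB, which fell, and UTS2, which rose, both given above. Besides NPY and CCK the listed genes called lower included PENK, the proenkephalin precursor, at 511, 563 and 534 in siC and 146, 172 and 187 in siSTAG2 (−1.67). The granule proteins were split. PCSK2, the convertase that processes prohormones, fell from 2104, 2271 and 2129 to 865, 895 and 948 (−1.26, SE 0.061), whereas CHGA and the granin-like VGF (105, 104 and 102 against 192, 179.9 and 153, 0.74) rose. The alpha-1D adrenergic receptor gene ADRA1D, which the study names, was at 422, 417 and 448 in siC and 242, 227 and 250.2 in siSTAG2, a log2 fold change of −0.84 (SE 0.084, adjusted p = 2.6e-08). ADRA2C fell likewise (−0.87). RNF141, a RING-finger protein gene that the study also names, was at 457, 431 and 442 in siC and 297, 289 and 325 in siSTAG2 (−0.55, SE 0.081, adjusted p = 1.5e-05). Among 21 ion channel genes the potassium channel subunit KCNE3 fell from 1722, 1755 and 1831 to 1131, 1099 and 1205 (−0.63) and the cardiac channel gene KCNH2 rose from 14.3, 13.8 and 13.5 to 37.7, 36.2 and 29.9 (1.25).

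Signalling and lineage genes moved both ways. Over all genes tested 9.54% were called higher and 11.0% lower, the shares to set beside the counts below. In the WNT list 8 of 24 members fell (33.3%). The lowest after DACT2 were the secreted antagonist FRZB (41.0, 37.4 and 52.1 against 8.88, 7.42 and 12.6, −2.08) and DKK3 (41.9, 28.5 and 40.6 against 5.55, 7.42 and 9.66, −2.16), while the receptor gene FZD8 rose (0.55). The BMP and TGF-beta list had 32 tested members, 1 was called higher and 9 lower (28.1%), among the latter the ligands TGFB2 (27.6, 33.5 and 30.2 against 9.99, 5.56 and 10.6, −1.73) and INHBA (−1.66). Among semaphorins, slits and netrins 10 of 28 fell (35.7%) and 2 rose (1 without siC replicate 1 or siSTAG2 replicate 2). The guidance cue NTN1 was at 103, 79.7 and 83.3 in siC and 27.7, 28.7 and 25.1 in siSTAG2 (−1.66), and SEMA5B fell from 77.2, 68.9 and 54.2 to 14.4, 12.98 and 17.4. The Notch ligand JAG2 rose from 137, 139.7 and 134 to 324, 299 and 291 (1.14, SE 0.098), and NOTCH2 (−0.49) and the Notch target HES1 (−0.35) fell. EFNB1 fell (−0.85) where EFNA5 rose. Of lineage factors SOX9, which directs cartilage, fell from 369, 316 and 375 to 163, 148 and 145 (−1.21, SE 0.099) and the neural progenitor gene SOX11 rose from 2600.1, 2432 and 2637 to 4147, 3709 and 3789 (0.60, SE 0.058). Among bHLH factors 6 of 11 fell (54.5%) and 1 rose, with TWIST1 lowest (−0.90) and the tendon factor SCX at −0.55. The imprinted zinc finger gene PEG3 fell from 1781, 1377 and 1741 to 568, 568 and 606 (−1.48, SE 0.078). HOX genes were mostly not called, 21 of 24 (12.5% called, beside 20.5% over all genes tested), and HOXB9 rose from low values (21.9, 10.8 and 19.8 against 46.6, 62.1 and 42.5, 1.51). Nor were 13 of 14 forkhead factors (7.14% called), or 11 of the 12 clustered protocadherins that passed the filter (8.33% called), whose promoter choice is a known use of CTCF and cohesin. Of these 12 protocadherins, 10 had a positive log2 fold change, and the median was 0.29 beside 0.0066 over all genes. The 53 listed protocadherins summed to only 579 to 712 in siC and 708 to 809 in siSTAG2. A missing call at such low values does not show that a gene was unchanged. The calls of the genes named here held without any 1 library.

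Cohesin also serves mitosis and DNA repair. The mitosis list had 40 tested members, 0 were called higher and 14 lower (35% beside 11.0% over all genes), and each change was small. UBE2C, which hands ubiquitin to the anaphase-promoting complex, was at 1729, 1652 and 1718 in siC and 1336, 1458 and 1389 in siSTAG2 (−0.29), ASPM, a spindle pole protein, at 987, 1013 and 1028 in siC and 821, 816 and 782 in siSTAG2 (−0.32) and the phosphatase CDC25C at −0.37. The count of lower mitosis genes was 9 without siC replicate 3 or siSTAG2 replicate 3, 8 without siSTAG2 replicate 1 7 without siSTAG2 replicate 2, and 2 when the spread was shrunk without the trend. The DNA replication list had 42 tested members, 0 were called higher and 5 lower, or 11.9% lower beside 11.0% over all genes (3 lower without siC replicate 3, siSTAG2 replicate 2 or siSTAG2 replicate 3). Thymidine kinase TK1 was the lowest of these, at 862, 843 and 924 in siC and 638, 622 and 661 in siSTAG2 (−0.45). None of 28 homologous recombination genes was called, and their fold changes ran from −0.30 to 0.22. Targets of p53 were called in both directions, 3 higher (15%) and 4 lower (20%) of 20, beside 9.54% and 11.0% over all genes. The count of lower genes was 2 without siC replicates 2 or 3 or siSTAG2 replicates 1 or 2. AEN rose (0.38) and FDXR fell (−0.58). A673 is known to lack functional p53. Among 6 inhibitors of cyclin-dependent kinases CDKN2D rose (0.49) and the other 5 were not called. Of the other chromatin complexes, condensin and SMC5/6 had 1 called member of 13, NCAPD2 (−0.28), or 7.69% beside 20.5% over all genes. The loop partners, CTCF among them, had 0 of 8 by limma. In PRC2 the accessory subunit PHF19 fell from 842, 804 and 805 to 585, 616 and 593 (−0.45). Of the 12 tested members of PRC2, 2 were called higher (16.7% beside 9.54% over all genes), the accessory subunits MTF2 (0.21) and JARID2 (0.18). Of these 2 calls, 0 or 1 held when any 1 library was left out. In PRC1 2 of 20 were called higher and 2 lower (10% each, beside 9.54% and 11.0% over all genes), with CBX7 lowest (−0.89). None was called in either direction without siC replicate 1 or siSTAG2 replicate 2.

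Interferon-stimulated genes can respond to double-stranded RNA, and whether taking up siRNA changed them was not tested. Of 37 tested members 1 was called higher and 12 lower (32.4% beside 11.0% over all genes), with a median of −0.36. The membrane restriction factor IFITM2 was at 209, 233 and 242 in siC and 116, 102 and 110.1 in siSTAG2 (−1.05) and OAS1, the sensor of double-stranded RNA, at 60.0, 52.2 and 53.1 in siC and 19.97, 34.3 and 23.2 in siSTAG2 (−1.10). IFI44L was the exception, at 31.5, 27.6 and 22.9 in siC and 58.8, 56.6 and 52.2 in siSTAG2 (1.02). Of 10 genes of antigen presentation by MHC class I, 6 were called lower (60% beside 11.0% over all genes). The count of lower genes was 3 without siSTAG2 replicate 3, and 3 without the trend. In this list 1 was called higher, the peptide transporter subunit TAP2 (0.33, a call lost without siC replicate 1 or siSTAG2 replicates 1 or 2). The MHC light chain B2M was at 10394, 9186 and 11005 in siC and 6599, 6469 and 6691 in siSTAG2, a log2 fold change of −0.63 (SE 0.061, adjusted p = 1.8e-08), and HLA-C at 601, 509 and 519.8 in siC and 373, 363 and 322 in siSTAG2 (−0.62). Of 13 genes of the RNA interference machinery XPO5, the exporter of small RNA precursors, rose (0.29), and TNRC6B, a partner of Argonaute, fell (−0.27, a call lost without siC replicate 1, siC replicate 3, siSTAG2 replicate 1 or siSTAG2 replicate 2).

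Ribosome biogenesis genes rose together, 14 of 24 called higher (58.3%) and none lower, with a median of 0.22, and 3 were called without the trend. Over all genes tested 9.54% were called higher and 11.0% lower, the shares to set beside the counts of this paragraph. BOP1, a processing factor of the large subunit, was at 1332, 1482 and 1361 in siC and 1892, 1750.5 and 1807 in siSTAG2 (0.38, SE 0.061) and the polyamine enzyme ODC1 at 1495, 1717 and 1739.8 in siC and 2050.3, 2145 and 2341 in siSTAG2 (0.40, SE 0.066). Targets of ATF4, the factor of the amino acid response, were called higher in 11 of 25 (44%) and lower in 2 (8%), and 4 were higher without the trend. The glutathione-degrading enzyme CHAC1 was at 123, 140.7 and 107.3 in siC and 184, 227 and 203 in siSTAG2 (0.73), the cystine transporter SLC7A11 at 420.3, 406 and 411 in siC and 574, 629 and 633 in siSTAG2 (0.57), and DDIT4, an inhibitor of mTOR complex 1, fell (−0.80). No member of the unfolded protein response rose and 5 of 16 fell (31.25%, and 2 genes without the trend), CALR most (−0.36). Among immediate early genes EGR1 rose from 635, 714 and 648 to 1204, 1309 and 1325 (0.94, SE 0.067) and FOSL1 from 43.8, 38.4 and 41.7 to 95.4, 71.4 and 86.9 (1.01) while EGR2 fell. In this list of 18 tested members 7 were called higher (38.9%) and 3 lower (16.7%). The count of higher genes was 3 or 4 without siC replicate 1, siSTAG2 replicate 1 or siSTAG2 replicate 3, and 4 by DESeq2 or without the trend. Lipid synthesis fell in part: 4 of 12 fatty acid genes, such as the desaturase FADS1 (11710.0, 12397 and 11202 against 8391, 8168 and 7776, −0.54), and 8 of 24 sterol genes were called lower (33.3% of each list). For the sterol genes 5 were lower without any 1 of the siC libraries 3 without siSTAG2 replicate 3, and 5 by DESeq2 and 2 without the trend. Of 34 genes of glycolysis and hypoxia 6 were called higher (17.6%) and 8 lower (23.5%). Over the alternative fits these counts ran from 3 to 10 higher and from 3 to 9 lower. The glucose transporter SLC2A3 (0.77) and hexokinase HK2 (0.62) rose and adrenomedullin, ADM, fell (144, 158 and 171 against 64.3, 62.1 and 57.96, −1.34). Transcripts of the mitochondrial genome were called higher in 8 of 13, but siC library 1 held fewest mitochondrial reads of all libraries, and without siC replicate 1 the count was 3 and the median change 0.14 in place of 0.44. Leaving out siSTAG2 replicate 1, 2 or 3 gave 4, 4 and 3, edgeR 5, and DESeq2 and the fit without the trend 0.

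**Figure D4:**
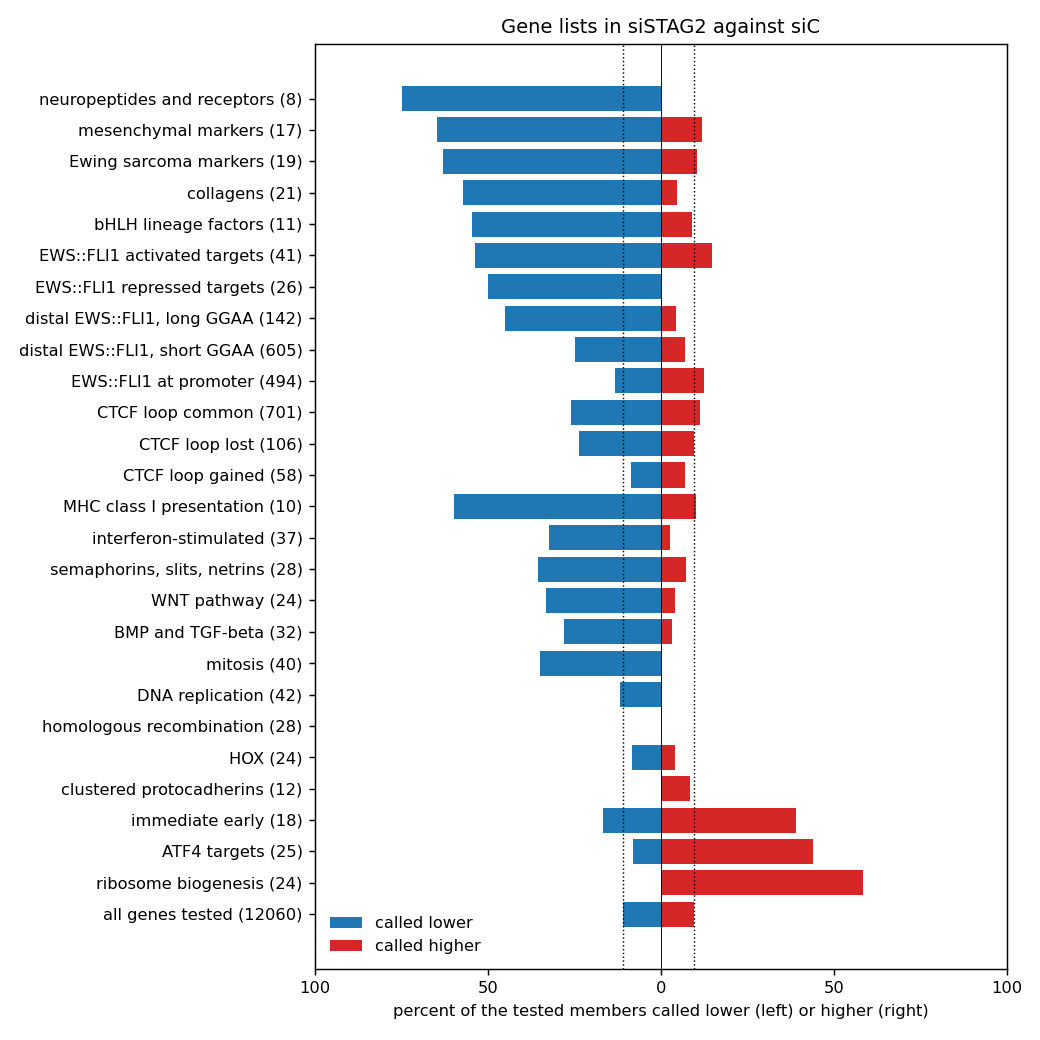
Percent of the tested members of each gene list (their number in parentheses) that were called lower (blue, to the left) or higher (red, to the right) in siSTAG2 against siC. Dotted lines mark the shares over all 12060 genes tested, 11.0% lower and 9.54% higher. Matrix, neuropeptide and Ewing sarcoma lists reach far to the left, and ribosome biogenesis far to the right.

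Called genes were spread over the genome, with 7.85% (chromosome 18) to 14.5% (chromosome 11) of the tested genes of a chromosome called lower and 7.31% to 12.1% called higher. As a description without a test, the tested gene with the nearest start was called lower for 213 of 1322 genes called lower (16.1%) and for 9.32% of genes that were not called. For genes called higher the nearest neighbour was called higher in 139 of 1138 (12.2%), against 9.15% for uncalled genes. Overlapping genes, whose reads may not be separable, are included in these counts. The median span of a gene was 34502 bp for those called lower and 28442 bp for those called higher, beside 31256 bp over the tested genes with a position.

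To ask where the acute knockdown differed from stable loss of STAG2, its effect was set against that in A673 clones in which STAG2 had been knocked out with CRISPR/Cas9. These were 5 STAG2 KO libraries and 6 STAG2-proficient libraries of experiments 1 and 2, the latter from the parental line and from a WT clone with inducible Cas9. They share no library with the knockdown, but the WT clone libraries come from the same clone, which p-values do not take into account. The labels give each KO library its own clone number, whereas the column name STAG2ko_5 occurs in both experiments. Whether a KO clone recurs is therefore not certain. In 1 limma fit over both sets, 83 of 11155 genes (0.744%) had an effect that differed, 52 with the knockdown above the KO and 31 below it. Of 2383 genes called in the knockdown and present in both sets, 1002 were called in the KO cells (42.0% of the knockdown calls and 41.3% of the 2424 KO calls, beside 21.7% of all 11155 genes called in the KO cells and 21.4% called in the knockdown), and 978 of these 1002 moved the same way. Knockdown calls here are those of the fit of the knockdown libraries alone, and KO calls those of the joint fit. Genes called in both had a median change of 0.56 on the log2 scale after the knockdown and of 0.93 in the clones.

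The 5 largest differences above the KO were genes with a more negative fold change in the clones than after the knockdown, where CECR2 (−0.47 (adjusted p = 0.072)) and PDPN (−0.24 (adjusted p = 0.22)) were not called. BMP7, a bone morphogenetic protein, had counts scaled by size factors of 533 to 1093 (median 882) in the 6 proficient libraries and 4.09 to 71.8 (median 18.97) in the 5 KO libraries, and values of 460.4, 541 and 541 in siC and 394, 417 and 446 in siSTAG2 in the knockdown. Its log2 fold changes were −0.29 after the knockdown and −5.55 in the clones, a difference of 5.25 (SE 0.72, adjusted p = 0.0019). SYNDIG1, a synaptic membrane protein, was at 556 to 1104 (median 672) in the 6 proficient libraries and 0 to 14.96 (median 1.04) in the 5 KO libraries, and at 295, 321 and 355 in siC and 86.5, 104 and 87.9 in siSTAG2. Its log2 fold changes were −1.79 after the knockdown and −8.01 in the clones, a difference of 6.21 (SE 0.81, adjusted p = 0.0015). PDPN, the membrane protein podoplanin, had a difference of 5.23, CECR2, a bromodomain protein, of 5.86, and ADGRG2 of 5.12. On the other side stood genes that rose in the clones and rose less, or fell, in the knockdown. ARHGAP31 had log2 fold changes of 0.80 after the knockdown and 2.01 in the clones, and NEDD4L, a ubiquitin ligase, of 0.50 and 1.72. CYP1B1, a monooxygenase, fell in one and rose in the other, at −0.55 and 1.26, a difference of −1.81 (SE 0.30, adjusted p = 0.0086). Its knockdown call was lost without siSTAG2 replicate 3, and that of BMP7 without siC replicate 3 or siSTAG2 replicate 1. The noncoding LINC02233 had a difference of −1.78 and PCBP4, an RNA-binding protein, of −1.33.

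For the cohesin genes no difference between knockdown and KO was called. STAG2 itself had a difference of −0.75 (95% interval −1.64 to 0.15, adjusted p = 0.59), and STAG1 of −0.069 (95% interval −0.57 to 0.43). PDS5B rose by 0.21 after the knockdown and by 0.66 in the clones, a difference of −0.46 (adjusted p = 0.17). Its 95% interval, not adjusted for the number of genes, was −0.74 to −0.17. NIPBL was at −0.0076 and 0.28, called higher in the clones only, a difference of −0.29 (95% interval −0.59 to 0.017). STAG2 RNA spread widely over the KO libraries, from 766 to 3331 (median 1145), beside 4483 to 6275 (median 5192) in the proficient libraries. The missing call for STAG2 therefore does not show equal effects, and RNA levels do not measure the loss of the protein. NR2F1 had log2 fold changes of 1.17 and 3.58, a difference that did not pass the test (adjusted p = 0.17). Nor did those of ADRA1D pass, −0.84 and −2.72 (adjusted p = 0.2), or RNF141, −0.55 and −0.85 (adjusted p = 0.84). The number of differing genes depended on single libraries: it was 30 to 39 when any 1 knockdown library was left out and 515 without KO clone 5 of experiment 2. With experiment 1 alone as the KO set it was 2127, and with experiment 2 alone 138. BMP7, SYNDIG1, CYP1B1 and ARHGAP31 were called in each fit that left out 1 library, and the other 6 named genes lost their call in 1 or more.

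**Figure D5:**
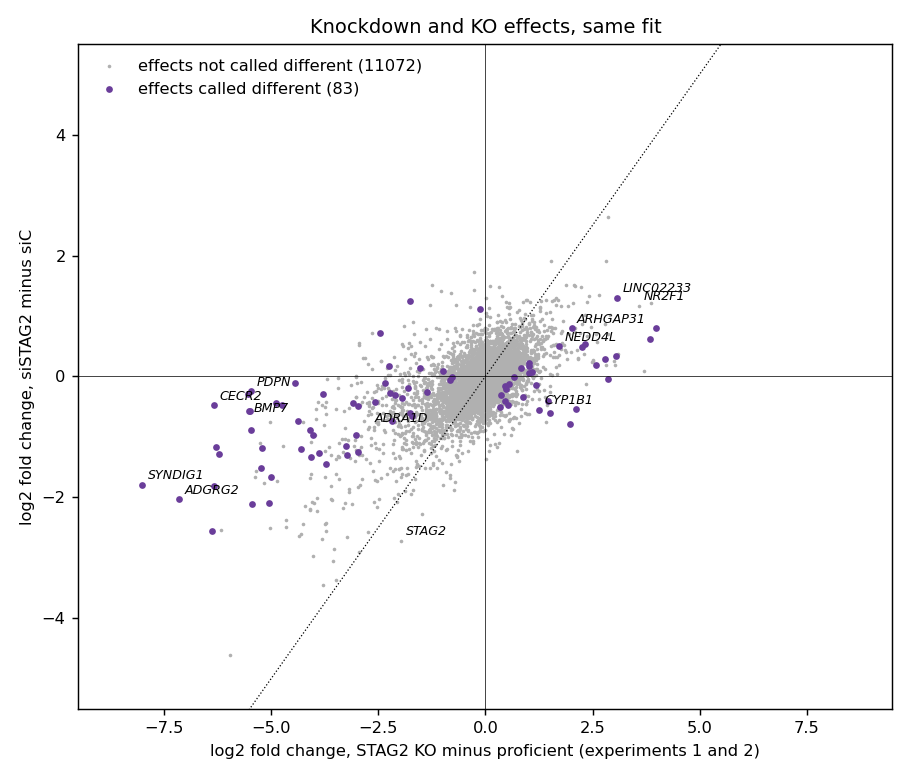
Log2 fold change after the knockdown (vertical axis) against that in STAG2 KO clones of experiments 1 and 2 (horizontal axis) for 11155 genes, from the same fit. The dotted line marks equal effects, and purple points are the 83 genes whose effects differed. Of these 83, 82 were called in the clones by this fit, and 44 after the knockdown by the separate fit of the knockdown libraries alone.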

How the data were processed

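Poly(A) RNA of A673 cells was sequenced as single-end 86-nt reads. For the knockdown, the authors deposited a signal per Ensembl gene, a read count scaled by a constant of each library whose origin is not given in the sources used here. Dividing by the smallest steps of the values gave whole reads for 100% of values (tolerance 0.001), 6852340 to 8184632 per library. For the clones, the authors deposited raw counts per gene symbol. The submitters' processing notes name TopHat2 2.0.0, Bowtie 0.12.7, SAMtools 0.1.16 and hg38, and FastQC and DESeq2 without a version. Whether DESeq2 gave the library constants is not stated in the sources used here. The counting program is not given in the sources used here.

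Groups came from the labels. Deposited values were tested with limma 3.58.1 (R 4.3.3, lmFit and eBayes with a trend) on log2(value + 1), so that fold changes of low genes are understated, for genes with a mean of at least 10. P-values were adjusted by Benjamini-Hochberg over all genes tested, with a threshold of 0.05. The difference from KO clones was a contrast in 1 fit with a term for the experiment, over genes with a mean of at least 10 in each set and with the counts scaled by the size factors of DESeq2. Gene positions came from GENCODE 44, and promoters from RefSeq (GRCh38.p14). The script was tested on simulated data. Named genes were the cohesin genes, 3 genes that the study names, 12 protein-coding genes at each end (called, mean of at least 50, groups apart), up to 3 called members at each end of each list, and 5 genes at each end of the contrast. The members and lists were chosen with earlier results of these data known, 8 of the 67 lists were taken from the study, and lists are described by counts and medians without a test. Alternatives were edgeR 4.0.16 and DESeq2 1.42.0 on recovered reads, other scalings, filters and pseudocounts, no trend, and leaving out each library. The 6 columns of per-sample values of EZH2 and SUZ12 KO clones were not used, and the tables of STAG1 KO and isogenic pairs were not used here.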

Additional observations from a re-analysis of the deposited data

Results flagged for a closer look

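These genes had an effect of STAG2 loss that differed between the knockdown and the KO clones by the test of the difference itself, and are given as the difference of log2 fold changes, knockdown minus KO (limma over all genes). The knockdown lay below the KO for CYP1B1 (−1.81, adjusted p = 0.0086), LINC02233 (−1.78, adjusted p = 0.034), PCBP4 (−1.33, adjusted p = 0.016), NEDD4L (−1.22, adjusted p = 0.034) and ARHGAP31 (−1.21, adjusted p = 0.0078). It lay above the KO for SYNDIG1 (6.21, adjusted p = 0.0015), CECR2 (5.86, adjusted p = 0.043), BMP7 (5.25, adjusted p = 0.0019), PDPN (5.23, adjusted p = 0.015) and ADGRG2 (5.12, adjusted p = 0.043). The duration of STAG2 loss, the clones and the experiment cannot be told apart in these differences.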

How the results depend on the processing

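STAG2 was called in all alternatives. The 2476 calls became 1200 without the trend, of which 443 were higher and 757 lower, in place of 1151 and 1325. DESeq2 called 1716, 745 of them higher, and edgeR 2471. Leaving out 1 library gave 1742 to 2537 calls, of which 740 to 1244 were higher. Scaling by library totals gave 2298 calls, 36.8% of them higher in place of 46.5%. Of the differences from the KO clones, 83 became 55 with a mean of at least 50, 2127 with experiment 1 only, 138 with experiment 2 only, 30 to 39 without 1 knockdown library and 515 without KO clone 5 of experiment 2. Over 3904 values for 248 single genes, 347 lost their call and none reversed, and of 1007 list medians 85 moved. A replicate block, which pairs the knockdown libraries by number, gave 2881 calls, 1390 higher and 1491 lower. The labels do not say whether equal numbers pair the libraries. Deviations of same-numbered libraries correlated weakly, by 0.026, 0.037 and 0.004, and those of other pairs by −0.030 to 0.0056. Not every library correlated best with its own number, and such weak correlations cannot decide whether the libraries are paired. In the contrast with the clones no paired analysis was possible. The KO libraries carry clone numbers, and fewer than 2 of these recur among the replicate numbers of their controls in either experiment. The causes were not tested.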
